A study of Rattus norvegicus with 18 samples.

Results

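The genes that changed within 1 h of switching on an inducible, transcription-activating form of MEF2 were followed in cultured rat hippocampal neurons. The comparison sets the 3 arrays of neurons carrying MEF2-VP16-ER and given 4-hydroxytamoxifen (4OHT) for 1 h against the 3 arrays of the same neurons at 0 h of 4OHT, which are 6 of the 18 arrays of the series. The arrays were chosen by their titles, and all 31042 probe sets other than the array's own control ones were tested. Lentivirus was given on day 3 in culture and 4OHT on day 10. The other 12 arrays hold MEF2-VP16-ER neurons at 2.5 h, and the control fusion at each time, MEF2deltaDBD-VP16-ER, which lacks the DNA-binding domain of MEF2. Each of the 6 groups had 3 arrays that the titles number as biological replicates. Whether replicates came from separate animals or platings, which MEF2 family member the fusion contains, and which promoter drives it are not given in the sources used here, so p-values measure the spread between these arrays.

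MEF2 proteins are transcription factors of the MADS-box family that bind A/T-rich sites and are held in check by class IIa histone deacetylases. In neurons, calcium entry during synaptic activity relieves this repression, and MEF2 is known for limiting the number of excitatory synapses on hippocampal neurons. The fusion joins MEF2 to the strong viral activation domain VP16 and to the ligand-binding domain of the estrogen receptor (ER), which keeps the protein inactive until 4OHT, the active metabolite of tamoxifen, is bound. The control fusion carries both domains and receives the same ligand.

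Within 1 h, 8 named genes rose and 1 fell in MEF2-VP16-ER neurons. The genes that rose were Rgs2, Cited2, Bambi, Spry1, Hs3st1, Nr4a1, Klf6 and Sgk1, by 0.62 to 1.44 log2 units, and the gene that fell was Hes1, by 1.04 log2 units. They encode regulators of transcription (Cited2, Nr4a1, Klf6, Hes1), brakes on G-protein, receptor tyrosine kinase and BMP signalling (Rgs2, Spry1, Bambi), a kinase (Sgk1) and a heparan sulfate enzyme (Hs3st1). These are 11 probe sets, of which 10 rose and 1 fell, or 0.0354% of all probe sets tested (0.0322% higher and 0.00322% lower). A change is the difference in mean log2(intensity + 16) between the groups, which makes the change of a dim gene look smaller than it is, and a gene is said to have risen or fallen where limma's p, adjusted by Benjamini-Hochberg over all 31042 probe sets, was under 0.05. The spread behind each SE and p came from all 18 arrays. With only the compared arrays in the fit, Bambi, Hs3st1, Rgs2, Sgk1, Spry1 and the Cited2 probe set with the larger change lost the call (limma adjusted p = 0.115 to 0.593). In all 11 probe sets the 3 arrays at 1 h did not overlap the 3 at 0 h, against 3053 of all 31042 probe sets. The 11 were selected by a test on these same arrays, so the separation adds no separate evidence.

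When the replicate number was entered as a block, so that each array was set against others of its own number, 58 probe sets changed, or 0.187% of those tested. Of these 48 rose (0.155%) and 10 fell (0.0322%), which is 34 named genes higher, 9 lower and 7 probe sets with no gene name. All 11 probe sets called without the block were among them, and 19 of the 58 changed at least 2-fold. The 2 groups did not overlap for 50 of the 58, against 3053 of all 31042 probe sets. The 58 were selected by a test on these same arrays, so this count adds no separate evidence. The genes added by the block included Fos, Fosb, Nr4a2, Nfil3, Klf4, Klf5, Bdnf, Ccn1, Adamts1, Rgs3, Rgs16 and Kcna4 among those that rose, and Txnip, Mycn, Klf10, Inhbb and Sstr2 among those that fell. When the block was random in place of fixed, Fosb, Klf5, Nfil3, Ccn1, Rgs3, Gbx2, Kcna4 and Txnip kept this call. It was lost for Fos, Nr4a2, Klf4, Klf10, Mycn, Bdnf, Rgs16, Adamts1, Fgl2, Inhbb, Sstr2, Zfp36, Pwwp3b, Otud1, Pcdh20, Zcchc3, Irf2bpl and Phf23 (limma adjusted p = 0.0627 to 0.633).

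In control neurons no probe set changed between 0 h and 1 h by limma's test, without or with the block (0% in both), and 840 and 1365 probe sets had an unadjusted p under 0.05. The same counts at an unadjusted p under 0.05 in MEF2-VP16-ER neurons were 1293 and 2600. The difference between the constructs in the 1 h change was tested directly. Without the block it passed for 1 probe set, that of Bambi (0.00322%), and with the block for 9 (0.029%), which were those of Bambi, Hs3st1, Klf5, Mycn, both of Cited2, 2 of the 3 of Klf6 and 1 of the 2 of Nr4a2. For every other gene named here, a change called in MEF2-VP16-ER neurons was not shown to differ from that in control neurons.

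**Figure D1:**
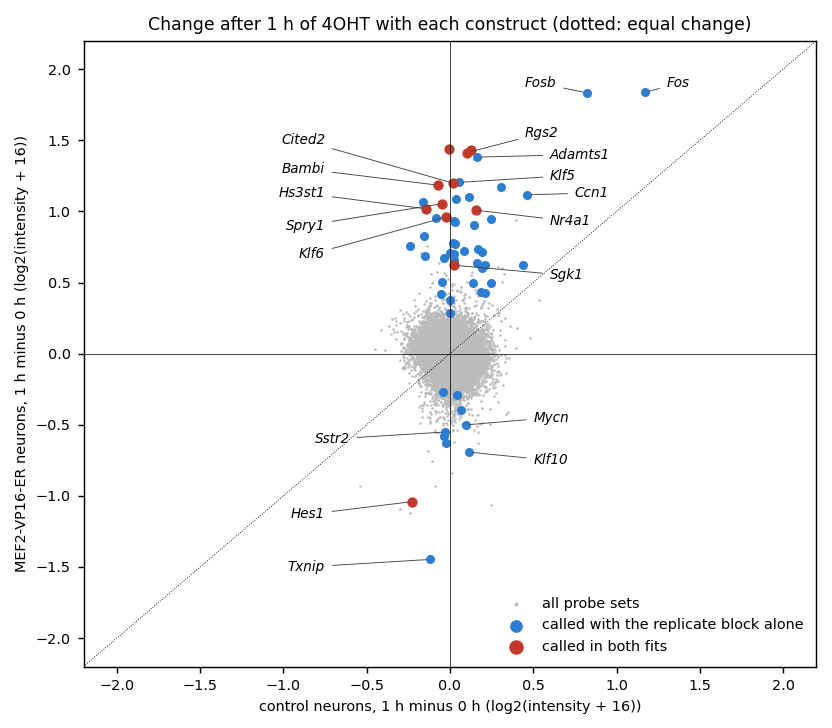
Change from 0 h to 1 h of 4OHT in MEF2-VP16-ER neurons (vertical axis, log2 units) against the same change in control neurons (horizontal axis, log2 units), 1 point per probe set, with those called without and with the replicate block in colour. The called probe sets that rose lie above most others while their control change stays near 0, apart from Fos, Fosb, Ccn1 and Arrdc3, whose control change was above 0.4.

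The arrays of replicate 2 differed from the rest in this comparison. Deviations from the group means of the 0 h and 1 h arrays of the same number had a correlation across probe sets of 0.54 in replicate 1, 0.07 in replicate 2 and 0.69 in replicate 3. The upper quartile of intensity was 715 in the 0 h array of replicate 2, the highest of the 18, and 677 in its 1 h array, while array medians lay between 190.4 and 197. Without the 6 arrays of replicate 2 the count fell to 1 probe set without the block, that of Bambi, and to 15 with it. Without replicate 1 the counts were 1 (Hes1) and 22, and without replicate 3 they were 8 and 29. Leaving out only the 0 h array of replicate 3 gave 7 without the block, and leaving out the other 5 arrays of the comparison in turn gave 8 to 15. The effect of what sets replicate 2 apart was not tested.

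Neuronal identity was checked against marker genes. All 11 measured general neuron markers, such as Snap25 and Syt1, lay above the median intensity, and so did 8 of 9 markers of excitatory neurons and 8 of 11 of inhibitory neurons. Of markers of other cells, 10 of 12 astrocyte markers, 6 of 12 oligodendrocyte markers, 9 of 14 fibroblast and pericyte markers, 4 of 14 microglia markers and 1 of 11 endothelial markers lay above that median. Probe sets differ in brightness for equal amounts of RNA, so these counts give no share of cells. No marker in any of these 8 lists was called at 1 h in either fit. The summed intensity of the astrocyte list was 45824 to 61845 at 0 h and 43754 to 62079 at 1 h, so that the groups overlapped. In bulk RNA fewer cells of a type and less RNA per cell cannot be told apart.

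Sequences before the start sites of early genes are shown for the promoters that held a searched element. Promoters of 250 bases before to 50 after each start were taken from RefSeq on build GRCr8, where 28 of the 34 genes that rose and 6 of the 9 that fell with the block had an entry, with 35 and 6 promoters. Fos, Klf2, Otud1, Fgl2, Stc1 and Rnf122, which rose, and Txnip, Mycn and Klf10, which fell, had no entry and were not searched. Matches are counted by gene, and a gene counts if any of its promoters holds the element. Each was searched on both strands for the MEF2 consensus, the CArG box that binds SRF, the CRE (TGACGTCA), the NBRE bound by NR4A receptors (AAAGGTCA) and the TATA box (TATAAA). A match of letters is a description and not a bound site. The MEF2 consensus was in the promoters of 0 of the 28 and 0 of the 6 genes, beside 3.66% of all 27457 genes in the table, so no MEF2 element is shown, and sequence outside these windows was not searched. The NBRE was in those of 0 of 28 and 0 of 6 genes, beside 1.49% of all genes.

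A CArG box, the element through which SRF drives many immediate early genes, was in the promoters of Klf6 and Zfp36 (2 of 28 genes that rose, 0 of 6 that fell, 1.77% of all genes). In Klf6, on the minus strand at chr17:69458479-69458728, it lies at -201 to -192 from the start, and in Zfp36, on the minus strand at chr1:92799109-92799208, at -32 to -23. Capitals mark the box, and each sequence ends at the base before the start.
Klf6: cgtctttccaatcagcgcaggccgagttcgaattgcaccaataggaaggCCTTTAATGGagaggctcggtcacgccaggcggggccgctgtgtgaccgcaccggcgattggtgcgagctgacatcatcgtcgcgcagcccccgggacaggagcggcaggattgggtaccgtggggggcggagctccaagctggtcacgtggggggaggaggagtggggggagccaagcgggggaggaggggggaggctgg
Zfp36: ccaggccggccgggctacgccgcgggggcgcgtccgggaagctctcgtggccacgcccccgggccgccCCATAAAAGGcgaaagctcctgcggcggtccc

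A TATA box was in promoters of 10 of the 28 genes that rose and 0 of the 6 that fell, beside 15.3% of all genes. By promoter the counts were 11 of 35 and 0 of 6, beside 14.2% of all 33469 promoters. The genes were Adamts1, Adcyap1, Bdnf, Ccn1, Fosb, Klf4, Mylip, Pwwp3b, Rgs3 and Sgk1. Positions varied, and in Bdnf, Fosb and Klf4 the letters were on the opposite strand. Ccn1 (minus strand, chr2:237225690-237225789) and both listed promoters of Sgk1 (minus strand, chr1:24807232-24807331 and chr1:24804832-24804931) hold it on the gene's own strand, at -34 to -29, -55 to -50 and -33 to -28. They are shown as cases with the letters upstream and near the start, with the TATA box in capitals.
Ccn1: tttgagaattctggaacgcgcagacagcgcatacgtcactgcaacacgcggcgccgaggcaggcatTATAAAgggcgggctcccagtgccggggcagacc
Sgk1, first promoter: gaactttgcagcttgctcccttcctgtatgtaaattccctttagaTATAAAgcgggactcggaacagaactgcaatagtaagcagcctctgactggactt
Sgk1, second promoter: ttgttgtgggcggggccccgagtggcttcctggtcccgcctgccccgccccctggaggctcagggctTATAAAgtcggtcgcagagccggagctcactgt

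The CRE, which binds CREB, was in promoters of 0 of the 28 genes that rose and 2 of the 6 that fell, Sstr2 and Irf2bpl, beside 549 of all 27457 genes. In Sstr2 (plus strand, chr10:99163253-99163352) it lies at -73 to -66 and in Irf2bpl (minus strand, chr6:112262265-112262364) at -44 to -37, in capitals. Both genes also had a negative change from 1 h to 2.5 h, at -1.07 and -0.60 (limma adjusted p = 3.12e-05 and 2.6e-05 with the block). Inhbb, whose promoter was searched and held no CRE, also went on falling to 2.5 h. The 1 h calls of Sstr2 and Irf2bpl were kept in 1 and 0 of the 6 fits with the block that left out 1 array. With a random block both were lost (limma adjusted p = 0.5 and 0.47).
Sstr2: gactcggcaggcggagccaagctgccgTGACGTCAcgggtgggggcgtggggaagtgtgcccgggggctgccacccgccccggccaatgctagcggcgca
Irf2bpl: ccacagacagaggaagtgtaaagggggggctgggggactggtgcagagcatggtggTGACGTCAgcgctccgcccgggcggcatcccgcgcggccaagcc

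Among transcription regulators called without the block the largest rise was that of Cited2, a coactivator-binding protein that competes for CBP and p300. Its brighter probe set read 1706, 1361 and 1513 in the 0 h arrays of replicates 1, 2 and 3, and 3701, 3434 and 3406 in the 1 h arrays. Every 1 h array was above all 0 h arrays and above every control array. The change was 1.20 ± 0.14 log2 units (SE from the model of all 18 arrays, n = 3 and 3 compared, fold 2.30, limma adjusted p = 0.00356, and 2.83e-05 with the block). A second probe set of the gene rose by 1.44 ± 0.19 (adjusted p = 0.00779), from 977, 735 and 683 to 2530, 1876 and 2128, and control neurons changed by 0.02 and -0.01 in the respective probe sets. The difference between the constructs was 1.18 ± 0.20 and 1.44 ± 0.27, called with the block (adjusted p = 0.00241 and 0.000654) and not without it (0.347 and 0.39). Without the block the second probe set's call was lost without the 1 h array of replicate 1, the 0 h array of replicate 2 or the 0 h array of replicate 3 (adjusted p = 0.0682, 0.0679 and 0.08), and with the block it was kept in all 6 such fits.

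Nr4a1, an orphan nuclear receptor of the immediate early class, read 768, 746 and 789 at 0 h and 1728, 1551 and 1418 at 1 h. The groups were far apart, and in control neurons the values were 794, 706 and 641 at 0 h and 925, 902 and 596 at 1 h, which overlap. The change was 1.01 ± 0.14 log2 units in MEF2-VP16-ER neurons (fold 2.01, limma adjusted p = 0.00779, and 0.000421 with the block) and 0.15 in control neurons, a difference of 0.86 ± 0.19 that passed neither test (adjusted p = 0.942, and 0.0928 with the block). The call without the block was lost when the 0 h array of replicate 1, 2 or 3 or the 1 h array of replicate 1 was left out (adjusted p = 0.0645, 0.0679, 0.0592 and 0.0682). Its relative Nr4a2 read 1774, 1255 and 964 at 0 h and 2570, 2187 and 1691 at 1 h in 1 probe set, so the groups overlapped while each replicate was higher at 1 h, by 0.53, 0.79 and 0.80 log2 units. The change of 0.71 passed with the block (adjusted p = 0.00203) and not without it, and the other probe set of the gene changed by 0.76 (0.00293 with the block) against -0.24 in control neurons. Nr4a3, the remaining member of the family, was not called, with changes of 0.28, 0.17 and 0.21 in its 3 probe sets.

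Of the 13 Kruppel-like factors measured, zinc-finger regulators that bind GC-rich sites, Klf6 was called without the block. Klf6 read 1536, 1655 and 1570 at 0 h and 3296, 3153 and 2859 at 1 h, with no overlap. Its change was 0.96 ± 0.13 log2 units (fold 1.94, limma adjusted p = 0.00779, and 7.05e-05 with the block), against -0.03 in control neurons, and the other 2 probe sets changed by 0.94 and 1.09 (adjusted p = 0.0559 and 0.0976, and 0.000421 and 0.0143 with the block). Without the block the call was lost without the 0 h array of replicate 1, the 1 h array of replicate 1 or the 0 h array of replicate 3 (adjusted p = 0.072, 0.0682 and 0.0715). The difference between the constructs, 0.99 ± 0.18, passed with the block (adjusted p = 0.00371). In Klf5 the replicates lay far apart but moved alike: 272, 222 and 209.5 at 0 h became 764, 561 and 404 at 1 h. That probe set changed by 1.20 (0.000421 with the block, 0.777 without), and the gene's other probe sets by 0.77, 0.50 and -0.0012, so they disagreed. Klf4 changed by 0.64 at the edge of the threshold (0.04998 with the block), and a call of Klf4 was not kept in any of the 6 fits that left out 1 array.

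Klf10, a factor known as an early target of TGF-beta, moved the opposite way. It read 1497, 1181 and 1285 at 0 h and 1067, 880 and 559 at 1 h, all lower, a change of -0.69 (limma adjusted p = 0.0141 with the block, 0.919 without). Control neurons changed by 0.12. Counting each gene by its brightest probe set, 3 Kruppel-like factors rose and 1 fell with the block, beside 0.155% and 0.0322% of all probe sets, and 1 rose and 0 fell without it, beside 0.0322% and 0.00322%. The call of Klf10 was kept in 4 of the 6 fits with the block that left out 1 array. Over the 13 genes the median change was 0.01, beside -0.01 over all probe sets. This list was chosen with earlier results of these data known, so its counts are not independent evidence.

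The bZIP factors Fos and Fosb had the largest changes of all genes called with the block, with uneven replicates. Fos read 1628, 834 and 539 at 0 h and 4031, 3351 and 2579 at 1 h. The control values were 1502, 818 and 186 at 0 h and 2232, 1803 and 700.0 at 1 h. Both constructs were higher at 1 h in all 3 replicates, with changes of 1.84 and 1.17, a difference of 0.66 ± 0.87. The rise in MEF2-VP16-ER neurons passed only with the block (limma adjusted p = 0.0437), in none of the 6 fits with the block that left out 1 array (0.0708 to 0.256), and a second Fos probe set changed by -0.02. Fosb read 100.1, 95.4 and 70.4 at 0 h and 571, 412 and 186 at 1 h, without overlap. The change was 1.83 (0.00144 with the block, 0.484 without) beside 0.82 in control neurons, a difference of 1.01 ± 0.58 that passed neither test. Nfil3, a repressor also called E4BP4, rose with the block and lay just outside the threshold without it: 1061, 1084 and 867 became 2460, 1778 and 2324, a change of 1.10 ± 0.18 (adjusted p = 0.0524, and 0.00132 with the block) against 0.12 in control neurons.

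The rest of the immediate early class did not follow as a group. Of the 24 immediate early transcription factors measured, 1 rose without the block (Nr4a1) and 5 with it (Fos, Fosb, Nfil3, Nr4a1, Nr4a2), beside 0.0322% and 0.155% of all probe sets. None fell, and the median change over the 24 was 0.06, beside 0.10 in control neurons. Because the list was chosen with earlier results of these data known, its counts are not independent evidence. Egr1, a zinc-finger factor that is among the quickest to respond to depolarization, read 3456, 2139 and 1474 at 0 h and 3101, 2350 and 1154 at 1 h. The groups overlapped, and the change was -0.12 ± 0.59. Its sign turned positive in some fits that left out an array. Arc, which encodes a synaptic protein needed for receptor endocytosis, changed by -0.14 ± 0.12 and was not called, nor was any of the 5 probe sets of the scaffold gene Homer1, with changes of -0.13 to 0.13.

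**Figure D2:**
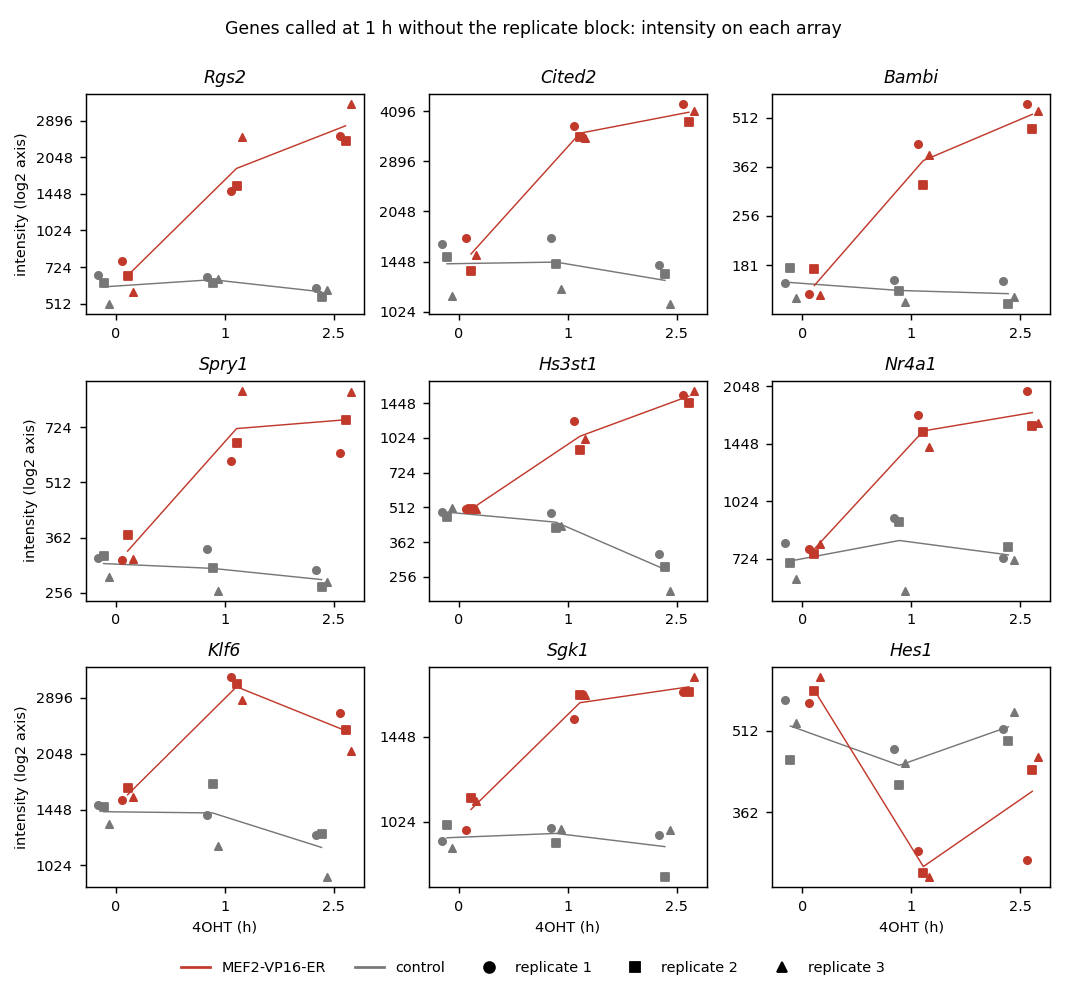
Intensity (log axis) of the genes called without the replicate block in each array, by construct and hours of 4OHT, with each replicate as a point. For Rgs2, Cited2, Bambi, Spry1, Hs3st1, Nr4a1, Klf6 and Sgk1 the 3 MEF2-VP16-ER arrays at 1 h sit above the 3 at 0 h, and for Hes1 they sit below, while control arrays stay near their 0 h level.

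Gbx2, a homeobox gene of hindbrain patterning, was dim at 0 h, at 107, 83.4 and 107, and read 143, 184 and 188 at 1 h. The groups did not overlap. The change of 0.70 ± 0.12 lay outside the threshold without the block (limma adjusted p = 0.0721) and passed with it (0.0217), and another probe set of the gene changed by 0.08. It was the only called member among the 25 measured homeobox and bHLH factors of neurons. With the block 0.155% of all probe sets rose. Mycn, a growth-promoting bHLH factor, fell with the block: 2116, 2762 and 2355 became 1576, 1976 and 1545, a decrease in each replicate (-0.42, -0.48 and -0.60). Its change was -0.50 (0.00279 with the block) against 0.09 in control neurons, and the difference of -0.60 ± 0.23 also passed with the block (adjusted p = 0.0498). All 6 fits with the block that left out 1 array kept the fall of Mycn, and it was lost without all arrays of replicate 1, 2 or 3 (0.07, 0.193 and 0.0648). The call of Gbx2 was kept in 3 of the 6 fits with the block that left out 1 array.

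Hes1 was the only gene called lower without the block. Hes1 is a bHLH repressor and the textbook target of Notch signalling. It read 576, 605 and 643 at 0 h and 307, 279.6 and 275 at 1 h, and the 3 later values lay below every control array of the series. The change was -1.04 ± 0.13 log2 units (fold 0.49, limma adjusted p = 0.00356, and 0.00101 with the block), and it was called in all 6 fits that left out 1 array. The call was lost without all arrays of replicate 2 or 3 (limma adjusted p = 0.9998 and 0.21, and 0.118 and 0.106 with the block). In control neurons each replicate was also lower at 1 h, with log2 differences of -0.30, -0.15 and -0.24, a change of -0.23 that was not called. The difference of -0.81 ± 0.18 passed neither test (adjusted p = 0.942, and 0.267 with the block). No other of the 28 Notch pathway genes measured was called, and their median change was -0.03. Of all probe sets, 0.00322% fell without the block and 0.0322% with it.

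Among regulators of signalling, Rgs2 had the largest change of those called without the block. It encodes an accelerator of GTP hydrolysis that shortens signals from Gq-coupled receptors. Rgs2 read 769, 663 and 572 at 0 h and 1493, 1557 and 2482 at 1 h in 1 probe set, and 967, 987 and 782 against 2325, 1928 and 3358 in the other. Replicate 3 was the lowest array at 0 h and the highest at 1 h in both, and the groups did not overlap. The changes were 1.41 ± 0.17 and 1.43 ± 0.18 (fold 2.66 and 2.69, limma adjusted p = 0.00356 for each, and 0.00101 and 0.00113 with the block), beside 0.10 and 0.12 in control neurons. The difference of 1.31 ± 0.25 passed neither test (adjusted p = 0.39, and 0.115 with the block). For the probe set with the smaller change, the call was lost without all arrays of replicate 1 or 2 (limma adjusted p = 0.159 and 0.9998). With the block it was lost without replicate 2 (0.127) and with only the compared arrays in the fit (0.106).

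A further pair of the 16 RGS genes measured rose with the block. Rgs16 read 527, 287 and 280.0 at 0 h and 1028, 691 and 586 at 1 h, a change of 1.06 (limma adjusted p = 0.00721 with the block, 0.919 without). Rgs3 read 708, 585 and 631 at 0 h and 1276, 958 and 1513 at 1 h, a change of 0.92 ± 0.17 (0.107, and 0.0143 with the block). In both genes the groups did not overlap. Of the 6 fits with the block that left out 1 array, 3 kept the call of Rgs16 and 1 that of Rgs3, and the other 2 Rgs3 probe sets changed by -0.08 and 0.05. The remaining 13 RGS genes lay between -0.11 and 0.13 and the median over the 16 was 0.003. Of the 16, 1 rose without the block and 3 with it, beside 0.0322% and 0.155% of all probe sets. This list too was chosen with earlier results of these data known, so its counts are not independent evidence.

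Spry1, which inhibits signalling from receptor tyrosine kinases to MAP kinase, read 314, 368 and 315 at 0 h and 587, 657 and 912 at 1 h. Replicate 3 again rose most, by 1.49 against 0.87 and 0.81. The change was 1.05 ± 0.15 log2 units (fold 2.08, limma adjusted p = 0.0127, and 0.00403 with the block), beside -0.05 in control neurons, where the 1 h arrays read 336, 299 and 259. The call without the block was lost without the 0 h array of replicate 1 or of replicate 3 (adjusted p = 0.118 each). Spry1 was the only called gene of the 18 Ras-MAPK feedback genes measured, a list that also holds other Sprouty genes and the dual-specificity phosphatases. The median of that list was -0.03. Of all probe sets, 0.0322% rose without the block and 0.155% with it.

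Bambi, a decoy receptor that resembles BMP and TGF-beta type I receptors but lacks a kinase domain, had the smallest p of all probe sets in the fit without the block. It read 148, 176 and 147 at 0 h and 424, 318 and 393 at 1 h. The control values were 159, 178 and 144 at 0 h and 163, 151 and 140.0 at 1 h. Only the MEF2-VP16-ER arrays given 4OHT were above 300. The change was 1.18 ± 0.11 log2 units (fold 2.27, limma adjusted p = 0.00049, and 4.79e-05 with the block) and -0.07 in control neurons. The difference of 1.26 ± 0.15 was the only interaction that passed without the block (adjusted p = 0.02, and 0.00241 with the block). That call was absent from the counts without 1 of 8 single arrays, which were the 0 h and 1 h arrays of MEF2-VP16-ER replicates 1 and 3, control 0 h replicates 1 and 2, and control 1 h replicates 2 and 3, where 0 probe sets passed.

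Of the 42 genes of the TGF-beta and BMP pathway measured, Bambi rose in both fits and Inhbb fell with the block. Inhbb encodes the beta B subunit of activins and inhibins and read 474, 831 and 770.0 at 0 h and 380.0, 438 and 472 at 1 h. All 1 h arrays were lower than any 0 h array, and control neurons read 505, 714 and 833 at 0 h and 503, 728 and 782 at 1 h. The change was -0.63 (limma adjusted p = 0.00663 with the block), and 3 of 6 fits with the block that left out 1 array kept it. Inhba, which encodes the beta A subunit, was not called, with 128, 177 and 121 at 0 h and 212, 228 and 166 at 1 h, an overlap. Its change was 0.47 ± 0.18 in that probe set and 0.03 in the other. The median change over the 42 genes was -0.01. Of all probe sets, 0.0322% rose without the block, and 0.155% rose and 0.0322% fell with it.

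Sgk1, a kinase related to Akt that responds to glucocorticoids and to activity, rose in every replicate. It read 987, 1127 and 1113 at 0 h and 1554, 1718 and 1716 at 1 h. The 3 replicates rose by 0.65, 0.60 and 0.62 log2 units. The change was 0.62 ± 0.07 (fold 1.54, limma adjusted p = 0.00356, and 0.00101 with the block) against 0.03 in control neurons, and all 6 fits without 1 array kept the call. The call of Sgk1 was lost without all arrays of replicate 1, 2 or 3 (limma adjusted p = 0.346, 0.417 and 0.139). It was also lost with only the compared arrays in the fit (0.231), and with the block without replicate 3 (0.0785). Zfp36, which encodes tristetraprolin, a protein that speeds the decay of cytokine and immediate early mRNAs, read 194, 172 and 152 at 0 h and 313, 317 and 206 at 1 h. It rose with the block, by 0.63 (0.00592), and was the only called member of 24 NF-kappaB and cytokine genes measured. The call was kept in 4 of the 6 fits with the block that left out 1 array. In control neurons Zfp36 changed by 0.21. The share of all probe sets that rose with the block in MEF2-VP16-ER neurons was 0.155%.

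Among genes of the cell surface and the secreted proteins, Hs3st1 encodes the sulfotransferase that completes the antithrombin-binding motif of heparan sulfate. At 0 h Hs3st1 read 504, 502 and 502, the tightest 0 h group of the 9 genes called without the block (SD 0.944), and at 1 h it read 1209, 905 and 1010. The change was 1.02 ± 0.11 log2 units (fold 2.03, limma adjusted p = 0.00356, and 0.000117 with the block), and all 6 fits without 1 array kept the call. Without the block the call was lost without all arrays of replicate 1, 2 or 3 (limma adjusted p = 0.102, 0.477 and 0.0513). It was also lost with only the compared arrays in the fit (0.115). With the block it was kept without each replicate (0.014, 0.0207 and 0.00175). Control neurons read 490.0, 465 and 509 at 0 h and 485, 416 and 424 at 1 h, a change of -0.14. The difference of 1.16 ± 0.16 lay just outside the threshold without the block (adjusted p = 0.0535) and inside with it (0.00248). None of the other 16 heparan sulfate enzymes measured was called, and they lay between -0.18 and 0.09. Of all probe sets, 0.0322% rose without the block and 0.155% with it.

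Bdnf, the neurotrophin that supports growth and plasticity of synapses, read 879, 721 and 442 at 0 h and 1538, 1416 and 968 at 1 h. The lowest 1 h array was above the highest 0 h array, and the replicates rose by 0.80, 0.96 and 1.10 log2 units. The change of 0.95 passed with the block (limma adjusted p = 0.00144), and was kept in all 6 fits with the block that left out 1 array, but not without the block, and the gene's other probe set changed by 0.38 (0.0609 with the block). In control neurons the change was -0.08, and the difference of 1.04 ± 0.50 lay just outside the threshold with the block (adjusted p = 0.0557).

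Ccn1, Adamts1 and Fgl2, which encode secreted proteins, rose with the block. Ccn1, also called Cyr61, a matricellular protein, read 85.1, 96.6 and 84.2 at 0 h and 286, 222 and 146 at 1 h. Its change was 1.12 ± 0.20 (limma adjusted p = 0.0925, and 0.00142 with the block), and control neurons also gave higher values at 1 h, at 119.6, 116 and 96.2 against 85.0, 67.1 and 75.4, a change of 0.46 that was not called. The metalloprotease gene Adamts1 read 95.7, 108 and 65.0 at 0 h and 319, 371 and 137 at 1 h, a change of 1.38 (0.0175 with the block). Its call was kept in 1 of the 6 fits with the block that left out 1 array. Fgl2, which encodes a secreted fibrinogen-like protein, rose with the block in 2 of its 4 probe sets, by 0.90 and 1.17 (0.00206 and 0.0217). The groups overlapped in both because replicate 1 was high at both times, with 224, 108 and 103 at 0 h and 498, 234 and 163 at 1 h in the brighter probe set, and the other 2 probe sets changed by 0.27 and 0.41.

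Among channels and receptors, Kcna4 rose and Sstr2 fell with the block, with which 0.155% of all probe sets rose and 0.0322% fell. Kcna4 encodes a rapidly inactivating voltage-gated potassium channel and read 623, 646 and 517 at 0 h and 1043, 981 and 935 at 1 h, without overlap. Its change was 0.72 ± 0.16 (limma adjusted p = 0.446, and 0.00102 with the block), it was kept in all 6 fits with the block that left out 1 array, and the remaining 21 potassium channel genes measured were not called, with a list median of -0.03. Sstr2, a receptor for the inhibitory peptide somatostatin, read 493, 570.0 and 438 at 0 h and 369, 394 and 257 at 1 h. The change was -0.55 (0.0372 with the block), its other probe set changed by -0.15, and 1 of the 6 fits with the block that left out 1 array kept the call. None of the 34 glutamate receptor and scaffold genes measured was called.

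Txnip, which encodes an inhibitor of thioredoxin that also limits glucose uptake, had the largest fall of any gene called with the block. It read 3153, 2273 and 2496 at 0 h and 1322, 1129 and 571 at 1 h. No 1 h array reached the lowest 0 h array, and replicate 3 changed most, by -2.10 log2 units. The change was -1.45 ± 0.34 (limma adjusted p = 0.569, and 0.000421 with the block), beside -0.12 in control neurons. All 6 fits with the block that left out 1 array kept it. The difference of -1.33 ± 0.48 lay just outside the threshold with the block (adjusted p = 0.0634). Arrdc3, a member of the same arrestin family that was picked after its values were seen, rose with the block by 0.62 (0.00293) and changed by 0.44 in control neurons.

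**Figure D3:**
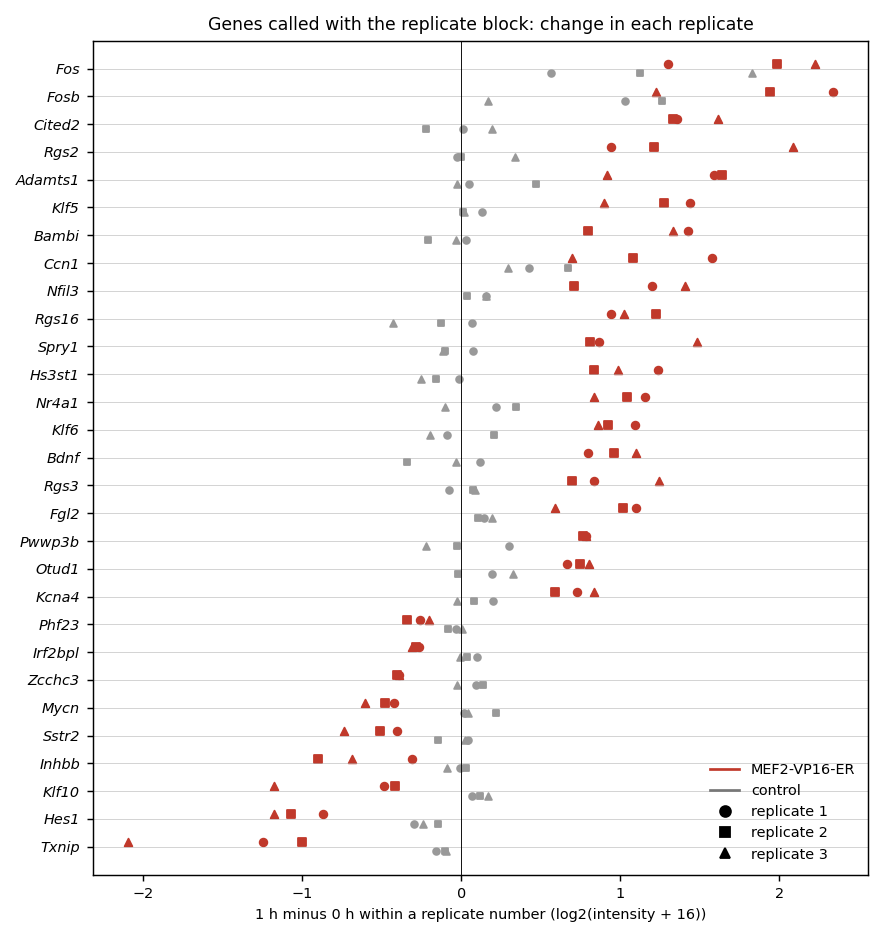
Change from 0 h to 1 h of 4OHT within each replicate number (log2 units), in MEF2-VP16-ER and in control neurons, 1 point per replicate. Genes are those called with the replicate block that changed most, up to 20 that rose and 10 that fell. All 3 MEF2-VP16-ER points of Pwwp3b lie close together, whereas those of Rgs2 and Txnip spread over more than 1 log2 unit.

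Further genes called only with the block were Pwwp3b (0.78), Otud1 (0.74) and Pcdh20 (0.42) among those that rose, and Zcchc3 (-0.40), Irf2bpl (-0.29) and Phf23 (-0.27) among those that fell. Pwwp3b, a PWWP-domain protein gene, read 119.6, 98.3 and 86.3 at 0 h and 217, 178 and 159.9 at 1 h, and its replicates rose by 0.78, 0.76 and 0.78. The groups did not overlap (limma adjusted p = 0.00455 with the block). Irf2bpl and Phf23 were at the edge of the threshold with the block (0.04998 each). The calls of Irf2bpl, Phf23, Otud1 and Zcchc3 were kept in 0 of the 6 fits with the block that left out 1 array, that of Pcdh20 in 2 and that of Pwwp3b in 6. The other probe sets of Irf2bpl changed by -0.14 and -0.02, that of Zcchc3 by -0.11 and that of Pcdh20 by 0.29.

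MEF2's own genes and its known targets were examined as lists. None of the 8 measured genes for MEF2 proteins and class IIa deacetylases was called, with changes from -0.19 (Mef2c) to 0.20 (Hdac5) in their brightest probe sets. Of the 13 measured genes that the literature gives as neuronal MEF2 targets, 2 rose without the block (Klf6 and Nr4a1) and 4 with it (also Bdnf and Kcna4), beside 0.0322% and 0.155% of all probe sets, and 0 fell, with a median change of 0.04 beside -0.02 in control neurons. Some of those reports used constructs of this kind, so the list is not independent evidence. None of the 42 measured muscle genes known as MEF2 targets was called, with a median of 0.02 and changes from -0.23 to 0.23. None of the 20 estrogen-responsive genes measured was called, with a median of 0.03.

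Among 29 activity-regulated effector genes measured, 3 rose without the block (Cited2, Rgs2, Sgk1) and 5 with it (also Bdnf and Ccn1), beside 0.0322% and 0.155% of all probe sets, and 0 fell. Their median was -0.03, beside 0.04 in control neurons. The list was chosen with earlier results of these data known, so its counts are not independent evidence. Lists that held no called gene still differed in sign. All 18 cholesterol synthesis genes had a negative change, with a median of -0.20, while 1 of 44 oxidative phosphorylation genes (median -0.09) and 2 of 22 heat shock and unfolded protein genes (median -0.13) had a positive change. In control neurons these medians were 0.03, 0.02 and 0.02. Genes of a list come from the same arrays, so counts by sign are not replicates. The summed intensity was 39905 to 61303 at 0 h and 35962 to 61989 at 1 h for cholesterol synthesis. For oxidative phosphorylation it was 217932 to 236834 and 197458 to 237362, so both lists overlapped. For heat shock and unfolded protein genes it was 75722 to 78774 and 67465 to 74177, without overlap. Over all probe sets 43.2% of changes were positive. Of the general neuron markers, 1 of 11 had a positive change, with a median of -0.07, and their summed intensity was 64431 to 69944 at 0 h and 63902 to 64636 at 1 h; the part of neuronal RNA content in the other lists was not tested.

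**Figure D4:**
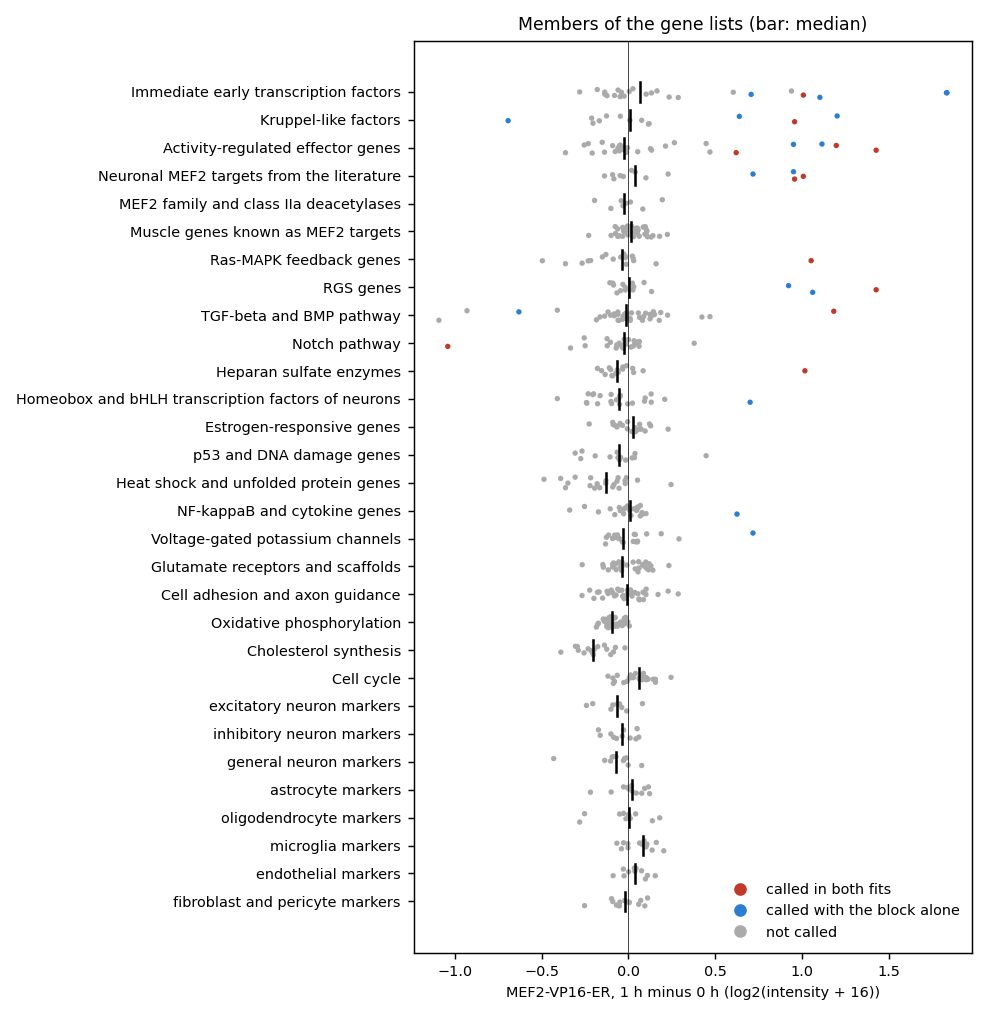
Changes from 0 h to 1 h in MEF2-VP16-ER neurons (log2 units) for the measured members of each gene list, 1 point per gene by its brightest probe set, with the list median marked. Medians lie between -0.20 for cholesterol synthesis and 0.09 for microglia markers. Some uncalled genes lie further from 0 than called ones of their list, such as Id3 (-1.09) and Id1 (-0.93) beside called Inhbb (-0.63).

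The early genes differed in what followed by 2.5 h. The 2.5 h minus 1 h and the 1 h minus 0 h changes share the 1 h arrays, so the 2 are given side by side. All later changes given here are those of MEF2-VP16-ER neurons, and whether they differ from control neurons was not tested. Without the block none of the 11 probe sets called at 1 h had a further change that passed. Hs3st1 rose by 1.02 and then by 0.58 (limma adjusted p = 0.05, and 0.00471 with the block), to 1576, 1449 and 1642, and Bambi rose by 1.18 and then by 0.46 (0.14, and 0.0324 with the block), to 563, 473 and 537. Spry1, Sgk1, Nr4a1 and Cited2 had a later change of 0.09, 0.09, 0.16 and 0.21 (brighter probe set), none of which passed in either fit. Klf6 moved back, by -0.39 (0.0307 with the block), from 3296, 3153 and 2859 to 2642, 2371 and 2076, and the later change of Hes1 was 0.42 (0.405, and 0.157 with the block).

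Pwwp3b, Gbx2 and Col10a1 rose between 1 h and 2.5 h. Pwwp3b changed by 0.78 to 1 h and then by 1.62 (limma adjusted p = 0.00161), to 761, 538 and 523, and Gbx2 by 0.70 and then 0.84 (0.00414), to 321, 337 and 299.6. Col10a1, a collagen gene of hypertrophic cartilage, was not called at 1 h, with 62.7, 64.4 and 63.0 at 0 h and 112, 79.3 and 116 at 1 h. The groups did not overlap, at a change of 0.56 ± 0.19, and the later change was 1.85 (0.000252), to 539, 264 and 473. Among genes that fell with the block, Inhbb and Sstr2 went on falling, by -0.69 and -1.07 (0.00096 and 3.12e-05 with the block), whereas Txnip and Klf10 had a later change of -0.04 and 0.00069.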

How the data were processed

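Total RNA from the neurons was hybridised as biotin-labelled cRNA to 18 Affymetrix arrays, 3 in each of 6 groups. The deposited series table holds 1 intensity per probe set and array on a linear scale, made by the authors by a normalization that is not named in the sources used here. From these, log2(intensity + 16) was computed without further normalization, 57 control probe sets were dropped and no filter was applied. Of 31042 probe sets, 20826 carried 1 gene symbol, 436 several and 9780 none, for 14217 genes; 20758 were found in RefSeq and 0 symbols were updated.

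All 18 arrays entered 1 limma model (limma 3.58.1, R 4.3.3) with a mean per group, lmFit and eBayes, with Benjamini-Hochberg adjustment within each contrast. The residual degrees of freedom were 12, and eBayes added 2.89 (10 and 5.13 with the replicate number as a fixed block). The median SE of a change was 0.08 log2 units (0.07 with the block), and the number of arrays limits the precision. Residuals of same-numbered arrays were correlated above 0.1 in 44 of 45 pairs, and all 18 arrays lay closest to an array of their own number. The lowest correlation, 0.068, was between the 0 h and 1 h MEF2-VP16-ER arrays of replicate 2. The fit without the block was set as the main one, and both fits are given.

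The comparison, the 30 gene lists (710 entries, 634 measured) and the rule for named genes were chosen with earlier results of these data known. Named are, by largest change, up to 20 genes higher and 10 lower called in each fit, up to 4 called members of each list or otherwise up to 2 with the smallest p, and 21 genes set by name. List members are represented by their brightest probe set. The fit of the 1 h change in MEF2-VP16-ER neurons, without and with the fixed block, was first tested on simulated data. The other steps were not. Figures were drawn with Python 3.11.15 and matplotlib 3.10.9. Alternatives were quantile normalization, median centring, other pseudocounts, a filter on dim probe sets, 1 probe set per gene, a trended and robust eBayes, fewer arrays in the fit, fixed and random replicate blocks, and leaving out arrays; the block with single arrays left out was added after the data were seen.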

Additional observations from a re-analysis of the deposited data

Results flagged for a closer look

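The 1 h change of Bambi differed between the constructs by limma's interaction test without the block: 1.18 in MEF2-VP16-ER neurons against -0.07 in control neurons, a difference of 1.26 log2 units (SE 0.15, adjusted p = 0.02, and 0.00241 with the block), and all 3 MEF2-VP16-ER replicates rose (1.42, 0.80 and 1.33).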

How the results depend on the processing

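The number of probe sets called in MEF2-VP16-ER neurons was 11, and lay between 11 and 15 under quantile normalization, median centring, pseudocounts of 1 and 64, a filter on dim probe sets, 1 probe set per gene, and eBayes with trend and robust. It was 4 with only the compared arrays in the fit, 58 with the replicate block, 29 with the replicate block and only the compared arrays, and 27 with a random replicate block (consensus correlation 0.23). It was 1 to 15 with arrays left out (7 to 15 for single arrays), and with the replicate block it was 30, 34, 33, 44, 36 and 34 without 1 array and 22, 15 and 29 without replicate 1, 2 and 3. In control neurons it was 0 under every alternative run. For the difference between the constructs the count was 1, and became 3 with quantile normalization, 2 with median centring, the dim filter, 1 probe set per gene or the trend, 0 with only the compared arrays, 9 with the replicate block, 10 with that block and only the compared arrays, 5 with a random replicate block, 0 to 2 with arrays left out and 0, 1 and 5 with the replicate block and without replicate 1, 2 and 3; the cause was not tested.

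For the 9 named genes called without the block, 211 of 259 comparisons with an alternative kept direction and call, 48 lost the call and 0 changed sign. Sign changes occurred for 4 genes that were not called. Egr1, at -0.42 to 0.28 with arrays left out, became 0.20, 0.28 or 0.038 without the 0 h array of replicate 1, the 1 h array of replicate 3, or with the replicate block and without the 0 h array of replicate 3. Mef2b, at -0.099 to 0.073 over all alternatives (-0.092 to 0.062 without the block and 1 array left out), became 0.052, 0.062 or 0.060 without the 0 h array of replicate 1, the 1 h array of replicate 2 or all of replicate 2 (0.057, 0.073 and 0.060 with the replicate block). Gad1, at -0.40 to 0.0043, became 0.0043 without replicate 1, and Mef2d, at -0.0040 to 0.18, became -0.0040 without replicate 3, in both fits. The smallest change called without the block was 0.62 log2 units, at 3 arrays a group.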

Other observations

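Genes of the Id family, which encode helix-loop-helix proteins that block bHLH factors and are known targets of BMP signalling, were picked after their values were seen. Their brightest probe sets changed by -0.93 ± 0.42 (Id1), -0.41 ± 0.13 (Id2), -1.09 ± 0.86 (Id3) and 0.13 ± 0.17 (Id4) in MEF2-VP16-ER neurons, and none was called by limma in either fit (adjusted p = 0.156, 0.386, 0.4 and 0.777 with the block). In control neurons the changes were -0.09, -0.07, -0.30 and -0.10. Atf3, a stress-induced bZIP factor, and Egr2 changed by 0.94 ± 0.64 and 0.61 ± 0.41, also without a call, beside 0.40 and 0.31 in control neurons. Dusp1, a MAP kinase phosphatase, changed by -0.50 ± 0.29 beside 0.18 in control neurons (0.124 with the block).

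With the block, several more genes rose that were picked after their values were seen. Gpr37, an orphan receptor gene, rose from 343, 398 and 351 to 581, 616 and 567, and Mylip, which encodes a ubiquitin ligase for lipoprotein receptors, from 368, 345 and 274 to 555, 519 and 499. These are changes of 0.67 and 0.66 (limma adjusted p = 0.0083 and 0.0259 with the block), beside -0.03 and 0.02 in control neurons. Rnf122 rose by 0.60 (0.00663), the secreted glycoprotein gene Stc1 by 0.50 (0.0277), the neuropeptide gene Adcyap1 by 0.44 (0.0372) and Fbxo33 by 0.43 (0.0277). For Klf2, 1 of 5 probe sets rose, by 0.50 (0.0493).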
